A study of Mus musculus with 6 samples.

Results

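The 9 genes described here, Slc22a2, Slc22a4, Slc22a5, Slc22a6, Slc22a7, Slc22a8, Slc22a12, Slc22a13 and Slc22a18, belong to the SLC22 family of organic ion transporters. They were taken by gene symbol from the deposited comparison of mouse kidneys, in which they hold 28 of 54721 transcript entries and are 9 of 23276 gene symbols. Of the 28 entries, 12 carry a RefSeq identifier and 16 were assembled from the reads. All 9 genes had a mean above 1 CPM (counts scaled to a common library size), from 5.40 CPM for Slc22a7 to 107 CPM for Slc22a8.

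SLC22 proteins move organic anions, organic cations, urate and carnitine across cell membranes. In the proximal tubule, those of the basolateral membrane take drugs, toxins and metabolites up from the blood, and those of the luminal membrane recover urate and carnitine from the filtrate or pass their substrates on. The mature proximal tubule owes much of its secretory and reabsorptive capacity to them, and several differ in abundance between male and female mice.

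Whole kidneys were taken at post-natal day 22 from 6 mice. The 3 SKO mice, labelled KspCre; Pkd1 F/RC, carried a floxed Pkd1 allele together with the hypomorphic RC allele, which is present in every cell, and a Cre driven by the Ksp-cadherin promoter, which is active in kidney tubules. The 3 DKO mice carried the same Pkd1 F/RC alleles and KspCre, with both copies of the miR-17∼92 cluster floxed (F/F). Cells without Cre are unrecombined in both groups, and the sex of each mouse is not given in the labels.

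The comparison asks what changed in these cystic kidneys when the cluster was removed from tubule cells. For each transcript the deposited table gives the log2 fold change (DKO over SKO), the mean CPM of the 6 kidneys, a likelihood ratio statistic and a p-value adjusted over all 54721 transcripts, and a transcript was called at an adjusted p under 0.05. Values of single kidneys are not in the table, so neither the spread between mice, nor the overlap of the groups, nor the depth of a library can be shown. Values after ± are approximate SEs, obtained from the log2 fold change and the square root of the statistic, and adjusted p-values are those of the likelihood ratio test of edgeR.

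The host transcript of the cluster did not fall in the kidneys labelled DKO. Mir17hg had a log2 fold change of 0.92 ± 0.41 (adjusted p = 0.154), and the table does not show which of its reads lie outside the floxed stretch. The groups are therefore named by their labels, and each direction below is that of the labels. Pkd1 itself had a log2 fold change of -0.66 ± 0.42.

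The floxed cluster encodes miRNAs of 4 seed families, shown because a seed match in a 3′-UTR is the letter pattern that a direct target would carry. The mature sequences below are those of RefSeq on GRCm38.p6, with bases 2 to 8, the seed, in capitals. miR-17 shares its seed with miR-20a, and miR-19a with miR-19b.
miR-17-5p: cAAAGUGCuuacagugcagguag
miR-20a-5p: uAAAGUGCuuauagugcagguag
miR-18a-5p: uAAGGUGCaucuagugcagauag
miR-19a-3p: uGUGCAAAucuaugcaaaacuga
miR-19b-3p: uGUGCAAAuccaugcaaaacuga
miR-92a-3p: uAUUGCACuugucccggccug

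The 3′-UTRs of the 9 genes, read from GENCODE transcripts of GRCm38, held 1 match to these seeds. GCACTTT, which pairs with the miR-17 seed, was in none of the 9, against 11.2% of 17827 mouse 3′-UTRs. TTTGCAC for miR-19 and GTGCAAT for miR-92a were also in none, against 10.1% and 6.03%. GCACCTT for miR-18a, present in 7.20% of 3′-UTRs, was found only in Slc22a8, at positions 74 to 80 of its 1558 bases (chr19:8610351-8610357, forward strand), shown with the match in capitals.
Slc22a8 miR-18a match: ctattcgaGCACCTTaggggttg

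The 9 3′-UTRs had a median length of 384 bases against 792 bases over all genes, and ran from 53 bases for Slc22a18 to 2088 bases for Slc22a6. A missing match says only that these letters are not in the annotated 3′-UTR.

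All 9 transporters were more abundant in the kidneys labelled DKO, and 4 of them passed the test. Slc22a8, Slc22a2, Slc22a5 and Slc22a4 rose by between 2.08-fold and 3.50-fold, whereas Slc22a6, Slc22a7, Slc22a12, Slc22a13 and Slc22a18 did not pass. Among the 13001 genes averaging 1 CPM or more, each represented by its most abundant transcript, 5.44% were called higher in DKO and 47.0% had a fold change above 0. Over the 9 genes the log2 fold changes had a median of 1.06, beside -0.05 over those 13001 genes. Counted by transcript, 12 of the 28 entries were called, all higher, against 5.49% of all transcripts called higher. Entries of 1 gene overlap and can share reads, so they are not independent, and 2 entries of Slc22a8 have the same mean CPM. In whole-kidney RNA, more cells of a type and more RNA per cell cannot be told apart.

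**Figure D1:**
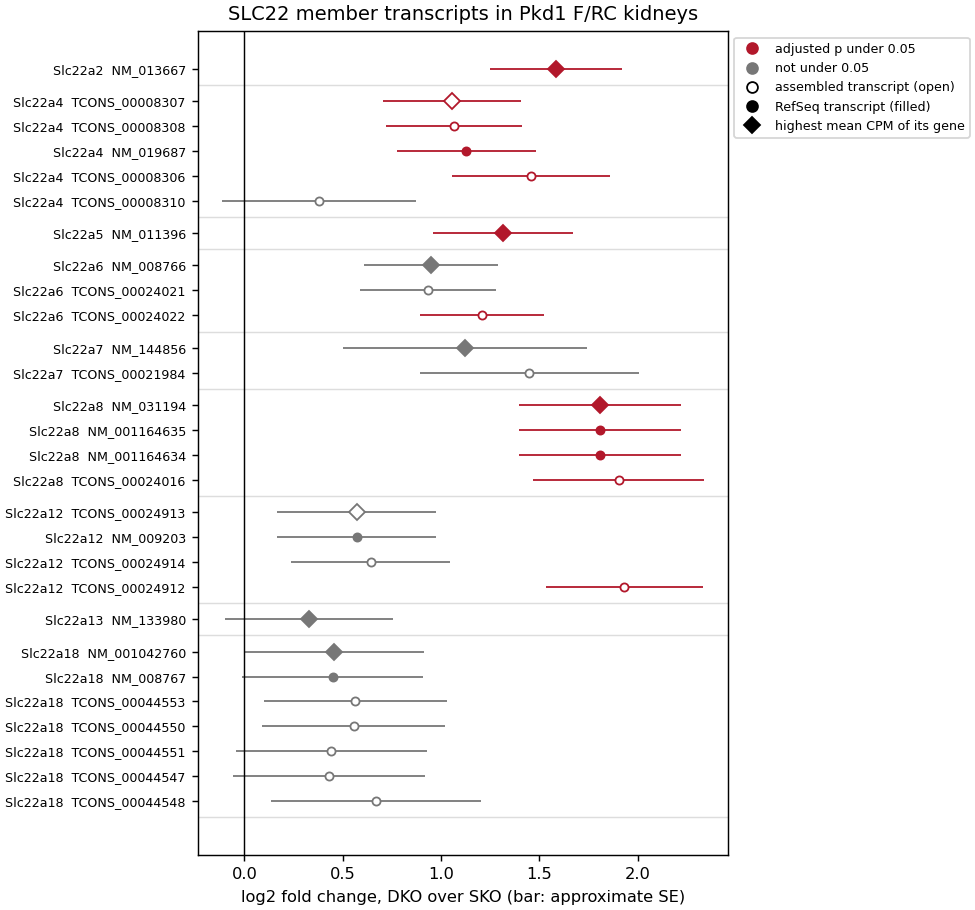
Log2 fold change of DKO over SKO (horizontal axis, bars 1 approximate SE) for each of the 28 transcript entries of the 9 genes. All 28 points lie above 0, the 12 red points passed an adjusted p of 0.05, and 1 assembled entry of Slc22a12 lies at 1.93, away from the other 3 entries of that gene.

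The organic cation and carnitine transporters were examined first. Slc22a2 (OCT2), which takes organic cations such as creatinine and metformin up from the blood, had 1 entry. Its mean was 32.9 CPM, which corresponds to 16.5 CPM in SKO and 49.4 CPM in DKO if the mean is that of the 2 groups. The log2 fold change was 1.58 ± 0.34 (adjusted p = 0.000284), and 250 of the 13001 genes had a larger one. The gene lies on chromosome 17 from 12584132 to 12628488, on the forward strand of GRCm38, with 11 exons.

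Slc22a5 (OCTN2), the sodium-dependent carnitine transporter that recovers carnitine from the filtrate, also had 1 entry. Its implied level was 30.4 CPM in SKO and 75.6 CPM in DKO, a 2.49-fold rise (log2 fold change 1.32 ± 0.36, adjusted p = 0.00663). Slc22a4 (OCTN1), its neighbour on the reverse strand of chromosome 11, carries ergothioneine. It rose by 2.08-fold, from an implied 8.46 CPM to 17.6 CPM (log2 fold change 1.06 ± 0.35, adjusted p = 0.0348). Of its 5 entries 4 were called, with log2 fold changes from 1.06 to 1.46, and the exception was the assembled entry TCONS_00008310, at 0.38 ± 0.49 and the lowest mean of the 5, 3.03 CPM. Another gene of this run, Slc22a21, lies between them on chromosome 11 and was rare. Its log2 fold change was -0.01 ± 0.43 at 1.33 CPM, with an adjusted p of 1, whereas both neighbours were called higher. The approximate 95% interval of Slc22a21 ran from -0.86 to 0.84, and the differences between these genes were not tested.

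The uptake of carnitine by Slc22a5 feeds the carnitine shuttle of mitochondria, for which a list of 9 genes of carnitine synthesis and transfer was written. Of the 8 with at least 1 CPM, all were higher and 3 were called, with a median log2 fold change of 0.78. The called genes were Bbox1, the last enzyme of carnitine synthesis, at 2.03 and only 1.27 CPM, Slc25a20, the carnitine carrier of the inner membrane, at 1.05, and Cpt2 at 0.90. The lowest value was that of Cpt1a, 0.40 ± 0.32 (adjusted p = 0.507).

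Of the organic anion transporters, Slc22a8 was called and Slc22a6 and Slc22a7 were not. Slc22a8 (OAT3), which takes up anionic drugs and conjugates at the basolateral membrane, had the largest log2 fold change of the 9 genes, 1.81 ± 0.41 (adjusted p = 0.000883). Its implied level was 47.3 CPM in SKO and 166 CPM in DKO. All 4 of its entries were called, with log2 fold changes from 1.81 to 1.90. Only 151 of the 13001 genes had a larger value.

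Slc22a6 (OAT1), the classical transporter of para-aminohippurate, lies next to Slc22a8 on chromosome 19, from 8618039 to 8628299. Its implied level was 55.8 CPM in SKO and 108 CPM in DKO. The log2 fold change of 0.95 ± 0.34 had an unadjusted p of 0.00511 and narrowly missed the call, with an adjusted p of 0.0550. When only transcripts of at least 1 CPM were adjusted together, Slc22a6 passed (edgeR adjusted p = 0.0478) and 5 of the 9 genes were called. That setting adjusts over fewer transcripts, and the share of all genes it called was not counted. Of its 3 entries 1 was called as deposited, the assembled TCONS_00024022, at 37.6 CPM and 1.21 (adjusted p = 0.00442). The other assembled entry, TCONS_00024021, had a mean of 79.8 CPM and 0.93 ± 0.35 (adjusted p = 0.0672), and was not called. Slc22a8 exceeded Slc22a6 by 0.86 on the log2 scale, with a combined approximate SE of 0.53 that takes the 2 estimates as independent, so these neighbours were not clearly separated.

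Slc22a7 (OAT2), which carries cyclic nucleotides and other small anions, was the least abundant member. Its implied level was 3.40 CPM in SKO and 7.40 CPM in DKO. The log2 fold change of 1.12 was close to that of Slc22a4, but its approximate SE of 0.62 was the widest of the 9 and the adjusted p was 0.284, with an approximate 95% interval from -0.10 to 2.34. Its assembled entry had a log2 fold change of 1.45 and an unadjusted p of 0.00955 (adjusted p = 0.0823).

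Of 8 transcription factors of the proximal tubule on a written list, 6 had a fold change above 0 and 1 was called: Ppara, at 0.91 (adjusted p = 0.0268). Hnf4a, at 0.59 ± 0.33 (adjusted p = 0.287), did not pass. The list ran from -0.86 for Ahr to 0.92 for Nr1i2.

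The urate transporters had lower log2 fold changes, and neither was called on its most abundant entry. Slc22a12 (URAT1), which reabsorbs urate from the filtrate, lies on the reverse strand of chromosome 19 from 6535845 to 6543032. Its most abundant entry, TCONS_00024913, had an implied level of 85.6 CPM in SKO and 127 CPM in DKO, and a log2 fold change of 0.57 ± 0.41 (adjusted p = 0.441). The RefSeq entry had the same fold change to 2 decimals, and another entry had 0.64. The assembled entry TCONS_00024912 stood apart, at 1.93 ± 0.40 (adjusted p = 0.000182), with an implied 13.4 CPM in SKO and 51.1 CPM in DKO. It exceeded the RefSeq entry by 1.36 on the log2 scale, a difference that was not tested because the entries can share reads. The table gives no exons for it. On the opposite strand Nrxn2 spans the whole of Slc22a12, with a mean of 2.20 CPM and a log2 fold change of -0.67 (adjusted p = 0.382), and whether the reads were counted by strand is not stated.

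Slc22a13 (OAT10), a luminal exchanger of urate and nicotinate, had the smallest log2 fold change of the 9, 0.33 ± 0.43 (adjusted p = 0.740), at an implied 12.5 CPM in SKO and 15.7 CPM in DKO. Its approximate 95% interval, from -0.51 to 1.17, includes 0 and also the 1.06 of Slc22a4. On the same strand of chromosome 9 the annotated span of Slc22a14 contains Slc22a13. The RefSeq entry of Slc22a14 was rare, at 0.202 CPM per kilobase of a transcript of 2213 bases. An assembled entry under that name had 27.2 CPM, a level not divided by length, and a log2 fold change of 0.60 ± 0.34 (adjusted p = 0.296). Reads near Slc22a13 may therefore be listed under either name.

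Slc22a18, a distant member of the family that lies in an imprinted region of chromosome 7, had 7 entries, none of them called. Their log2 fold changes ran from 0.43 to 0.67. The most abundant entry had an implied 40.2 CPM in SKO and 55.0 CPM in DKO (log2 fold change 0.45 ± 0.46, adjusted p = 0.634).

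The order of the 9 log2 fold changes, from Slc22a8 through Slc22a2, Slc22a5, Slc22a7, Slc22a4, Slc22a6, Slc22a12 and Slc22a18 to Slc22a13, was not resolved step by step. Each neighbouring pair differed by between 0.07 and 0.38, less than its combined approximate SE of 0.49 to 0.72. The ends differed by more, with Slc22a8 exceeding Slc22a13 by 1.48 (combined approximate SE 0.59). These differences are descriptions, since the 9 genes were measured in the same kidneys.

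Levels of different genes were compared per kilobase of the RefSeq transcript. In SKO the implied level was highest for Slc22a12, at 38.5 CPM per kilobase, followed by Slc22a18 at 25.9 CPM per kilobase, then by Slc22a6, with Slc22a8 in place 4 at 13.7 CPM per kilobase. In DKO Slc22a12 was still first, at 57.1, and Slc22a8 was second, at 48.1 CPM per kilobase, ahead of Slc22a18 at 35.5 and Slc22a6 at 27.1. The lowest of the 9 was Slc22a7 in both groups, at 1.71 and 3.72 CPM per kilobase. Slc22a18 and Slc22a6 each stood 1 place lower in DKO, Slc22a8 moved from place 4 to place 2, and the other 6 genes kept their places. The spread between mice behind these levels is not known.

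**Figure D2:**
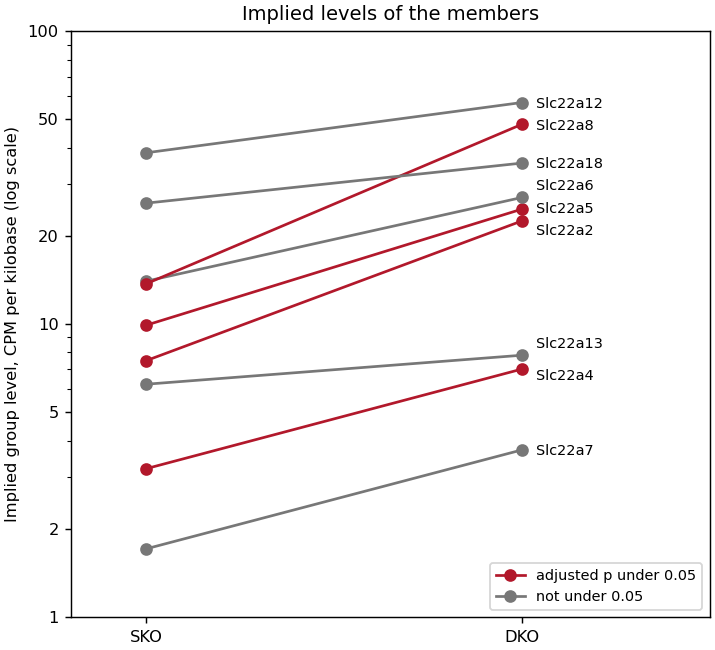
Implied level of each of the 9 genes in SKO and DKO kidneys, in CPM per kilobase of the RefSeq transcript on a log scale, with lines joining the 2 groups. Slc22a8 crosses Slc22a18 and Slc22a6 between 13.7 and 48.1 CPM per kilobase, and lines in red belong to genes with an adjusted p under 0.05.

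**Figure D3:**
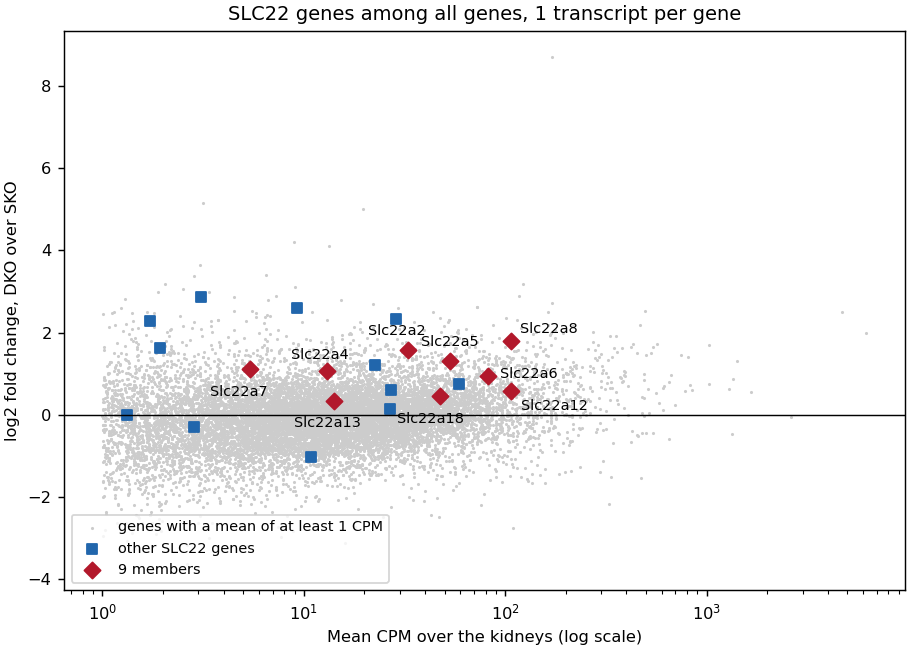
Log2 fold change of DKO over SKO (vertical axis) against the mean CPM over the kidneys (log scale) for the 13001 genes with at least 1 CPM, 1 transcript per gene. The 9 labelled members lie between 0.33 and 1.81, all above the line at 0, and other SLC22 genes (squares) lie between -1.01 and 2.87.

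Of 17 other SLC22 genes on a written list, 16 were in the table and 12 had at least 1 CPM. Of these 12, 9 were higher and 6 were called, all higher, around a median of 0.97. The 6 were Slc22a22, a prostaglandin transporter, at 2.61, and 5 genes of the rodent cluster on chromosome 19: Slc22a27 at 2.87, Slc22a29 at 2.34, Slc22a28 at 2.27, Slc22a30 at 1.64 and Slc22a19 at 1.20. Slc22a23, Slc22a21 and Slc22a15 lay between -0.30 and 0.14. The lowest value was that of Slc22a17, a member with a role in uptake of lipocalin-bound iron, at -1.01 (unadjusted p = 0.0440, adjusted p = 0.214). Slc22a27, Slc22a28, Slc22a29 and Slc22a30 are close copies of each other, so reads may have been split or lost between them, and their separate values are uncertain.

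On chromosome 19, 8 SLC22 genes had at least 1 CPM. Slc22a8 and Slc22a6 end a run that begins with Slc22a19, and Slc22a12 lies apart, before that run. The 6 of these genes from Slc22a19 to Slc22a8 were called, and the members Slc22a6 and Slc22a12 were not. Slc22a26, inside the run, had a mean of only 0.105 CPM. The nearest other genes with at least 1 CPM, Pla2g16 before the run and Slc3a2 after it, had log2 fold changes of 0.33 ± 0.35 and 0.68 ± 0.40, neither of them called.

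**Figure D4:**
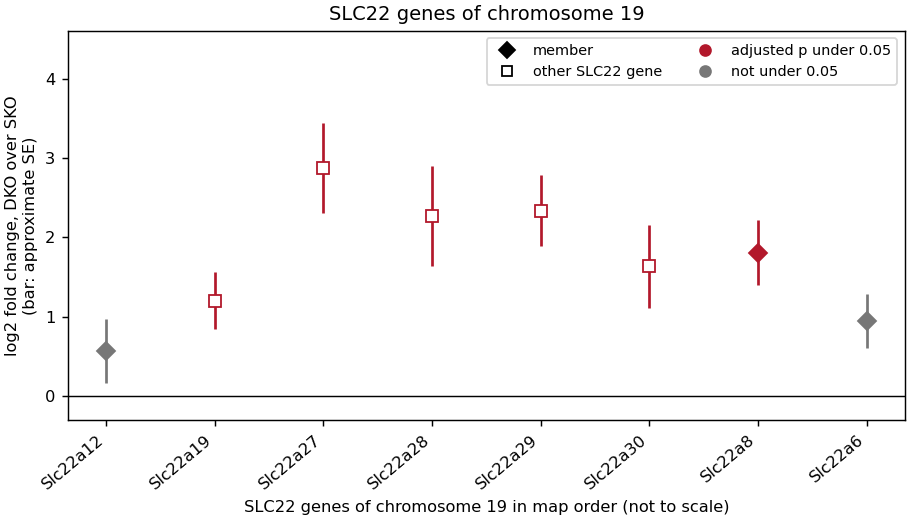
Log2 fold change of DKO over SKO (vertical axis, bars 1 approximate SE) for the 8 SLC22 genes of chromosome 19 with at least 1 CPM, in map order and not to scale. Values run from 0.57 for Slc22a12 to 2.87 for Slc22a27, and members are drawn as filled diamonds.

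Organic ions taken up by SLC22 proteins leave the cell through other transporters, and the anion exchangers are driven by dicarboxylates. On a written list of 20 such partners and scaffolds, 19 had at least 1 CPM, of which 17 were higher and 9 were called, all higher, around a median of 1.09. Slc47a1 (MATE1), which extrudes the cations that Slc22a2 takes up, rose by 1.43 on the log2 scale (approximate SE 0.32, adjusted p = 0.000675). Slc13a3, the dicarboxylate transporter that supplies the exchange of Slc22a6 and Slc22a8, had 1.38 with an adjusted p of 0.0498, just inside the threshold. Slc17a3, a luminal urate and anion transporter, had the largest value, 2.06, and the lactate transporter Slc5a12 had 1.38 (adjusted p = 0.0465). Slc13a3 and Slc5a12 lost their calls, at adjusted p = 0.0597 and adjusted p = 0.0557, when the adjustment ran over 1 transcript per gene. The lowest was Abcc4, an anion efflux pump, at -0.54 ± 0.32 (adjusted p = 0.315).

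Markers of the proximal tubule, the segment that expresses most members, were higher as well. All 13 markers of the proximal tubule on a written list were higher and 8 called. Their log2 fold changes ran from 0.59 for Hnf4a to 1.91 for Miox, with a median of 1.37. The median of the 9 SLC22 genes was 1.06, with a range from 0.33 to 1.81, and the difference was not tested. The endocytic receptor Lrp2 had 1.73 and the phosphate transporter Slc34a1 1.69. Summed over the list, the implied level was 1899 CPM in SKO and 5106 CPM in DKO, a 2.69-fold difference, beside 300.2 CPM and 621 CPM, 2.07-fold, for the 9 SLC22 genes. Abundant genes weigh most in such a sum, with Slc34a1 at 1574 CPM and Lrp2 at 871 CPM in DKO. The lowest implied level among these markers was 7.91 CPM, for Slc34a3 in SKO.

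Markers of other cells moved as well. All 6 macrophage and all 6 stromal markers were lower in DKO, with 3 and 5 of them called. The macrophage markers ran from -2.81 for C1qa to -0.73 for Cd68, and the stromal markers from -1.73 for Tagln to -0.80 for Pdgfrb. Over the 13001 genes 5.02% were called lower. Of 6 injury genes 5 had at least 1 CPM, all of them lower and 2 called, from Lcn2 at -2.48 to Havcr1 at -0.35. Of 6 markers of the thick ascending limb and distal convoluted tubule, all were higher and 3 were called, from Kcnj1 at 0.35 to Pvalb at 5.14. Of 6 of the glomerulus and endothelium 5 were higher and 3 called, from Pecam1 at -0.35 to Ehd3 at 1.19. Of 6 of the collecting duct 4 were higher, with 2 called higher and 1 lower, from Scnn1g at -1.26 to Slc4a1 at 1.84. The part that any of these cells has in the SLC22 values was not tested.

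**Figure D5:**
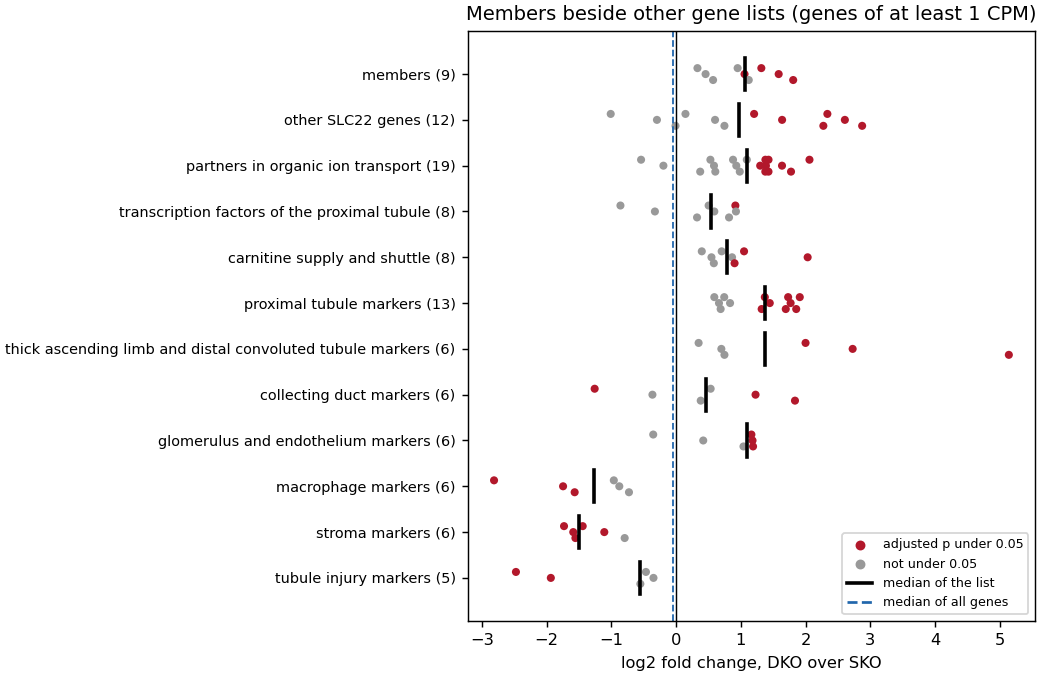
Log2 fold change of DKO over SKO for the genes of each written list with at least 1 CPM (number in brackets), with the median of the list as a black bar and the median of all genes, -0.05, as a dashed line. The median of the members (1.06) lies below that of the proximal tubule markers (1.37), but the points of these lists overlap and the difference was not tested. The macrophage and stroma markers all lie below 0.

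The groups also differed in a gene that marks female cells. Xist, the RNA of the inactive X chromosome, had a log2 fold change of 8.71 ± 2.09 (adjusted p = 0.00164). Its implied level was 0.81 CPM in SKO and 340 CPM in DKO. Kdm5d, Ddx3y, Eif2s3y and Uty, the 4 genes of the Y chromosome examined, lay between -0.59 and 0.30, with approximate SEs of 1.33 to 1.43. Kap, an androgen-responsive gene of the proximal tubule, had 2.49 ± 0.67 (adjusted p = 0.00603). Since renal SLC22 genes can differ between the sexes, these values stand beside those of all 9 members, and their part in them was not tested.

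At the unadjusted p of 0.05 that the study's methods use, 5 of the 9 genes passed, with Slc22a6 added, against 11.3% of the 13001 genes that were higher at this threshold. Stricter reference distributions for the statistic gave fewer calls. With an F distribution of 1 and 14 degrees of freedom Slc22a2 and Slc22a8 passed, beside 928 of all 54721 transcripts in either direction. With 1 and 4, the residual degrees of freedom of 6 kidneys, 0 of the 9 genes and 0 of all 54721 transcripts passed. Before adjustment 5 of the 9 genes had a p under 0.05 with 1 and 4, and the share of all genes at that setting was not counted.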

How the data were processed

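RNA of 6 kidneys, 3 SKO and 3 DKO, was read by the authors on strand-specific libraries, trimmed, mapped to mm10 with TopHat2 2.0.12 and filtered on mapping quality. The submitters' processing notes also name Cufflinks, featureCounts (Subread 1.4.6) and edgeR 3.2.4. Whether counting used the strand, allowed a read in several transcripts, or was scaled for composition is not given in the sources used here. The deposited table holds 2 log2 columns made by the authors, the fold change and the mean CPM of a transcript. Its score column, also the authors', is the likelihood ratio statistic of edgeR's glmLRT. The deposited p-value equalled the chi-square tail of that statistic with 1 degree of freedom, and the deposited adjusted p-value its Benjamini-Hochberg value over 54721 transcripts, as checked by recomputing both. The table holds the authors' own comparison and nothing for a single kidney, so depth is unknown and no interval or floor from counts was set. P-values set each fold change against the spread between these mice as the authors' model estimated it, and are not themselves a measure of that spread.

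The members and lists were chosen with earlier results of these data known. Each gene stands for its most abundant transcript. Group levels assume that the mean CPM is that of the 2 groups, and approximate 95% intervals take the normal distribution. Levels per kilobase used lengths of GENCODE M21 transcripts matched by RefSeq identifier, on GRCm38, the assembly of mm10. The functions were tested on simulated data. All members are named, as are the other SLC22 genes of at least 1 CPM except where a gene is not reported here. Of the other lists the ends of the range are named, with up to 2 more called genes of largest mean CPM for some. Slc47a1 and the neighbouring genes were named after their values were seen. Python 3.11.15, numpy 2.4.6, pandas 2.3.3, scipy 1.17.1 and matplotlib 3.10.9 were used.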

Additional observations from a re-analysis of the deposited data

How the results depend on the processing

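The 12 called transcripts and 4 called genes of the members were recounted under each alternative. With an F distribution of 1 and 4 degrees of freedom 0 transcripts and 0 genes were called, as were 0 other SLC22 genes, partners, transcription factors, carnitine genes and genes that differ between sexes. Before adjustment 13 transcripts and 5 genes of the members had a p under 0.05 with this reference, and the share of all genes was not counted. With 1 and 14 degrees of freedom 6 transcripts and 2 genes of the members were called, beside 928 of all 54721 transcripts in either direction. The same reference called 3 other SLC22 genes in place of 6 and 3 partners in place of 9. It called 0 transcription factors, 0 carnitine genes and 0 genes that differ between sexes, in place of 1, 3 and 2. With only RefSeq transcripts 6 of 12 member transcripts were called, since fewer were tested. With RefSeq transcripts alone and with the adjustment over 1 transcript per gene, 7 partners were called in place of 9, without Slc13a3 and Slc5a12. At an unadjusted p under 0.05, 4 transcription factors passed in place of 1, of which 3 were higher and Ahr was lower. The 4 called member genes were among those called at an unadjusted p under 0.05, with a minimum of 1 CPM, with RefSeq transcripts alone and with the adjustment over 1 transcript per gene. Subtracting the median of all genes, -0.05, could only raise the log2 fold changes of the 9 genes. Since all 28 entries were above 0, taking the median over each gene's transcripts or the transcript of lowest p could not change a sign. The transcript of lowest p gave Slc22a6 1.21 and Slc22a12 1.93, both called, but this choice can only add calls. Leaving out each kidney, a quasi-likelihood test, DESeq2 and other normalizations were not run, because each needs values of single kidneys. The same lack of counts per kidney leaves unknown how small a difference could have been detected.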

Other observations

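The genes nearest to the members on the chromosome were looked up after the values of the members had been seen. Of 14 distinct neighbours outside the SLC22 family with at least 1 CPM, 8 were higher, 2 were called higher and 1 was called lower. Their median log2 fold change was 0.07, with a range from -1.06 to 1.99. Cdkn1c, an imprinted inhibitor of the cell cycle that lies beside the imprinted Slc22a18 on chromosome 7, rose by 1.99 on the log2 scale (approximate SE 0.38, edgeR adjusted p = 3.8e-05), while Slc22a18 itself had 0.45 and did not pass. Acaa1b, a peroxisomal thiolase beside Slc22a13 on chromosome 9, rose by 1.76 (approximate SE 0.46, edgeR adjusted p = 0.00465), while Slc22a13 had 0.33. Rps6ka4, the next such gene after Slc22a12 on chromosome 19, fell by 1.06 (approximate SE 0.36, edgeR adjusted p = 0.0403). Irf1 and P4ha2, on either side of Slc22a5 and Slc22a4, had log2 fold changes of -0.95 and -0.14, and neither was called. The differences between members and their neighbours were not tested.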
